A study of Homo sapiens with 6 samples.

Results

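Described here are 10 genes that encode interleukins, colony-stimulating factors and related cytokines: IL1A, IL1B, IL6, IL11, IL18, IL32, LIF, CSF1, CSF2 and TNF. They were taken by symbol from a deposited table of raw read counts, and all 10 were found by their Ensembl identifiers among 60605 genes. Polyadenylated RNA had been sequenced from HuCCT-1, an established human cell line from a bile duct cancer (cholangiocarcinoma). One group of 3 libraries (JNJ) came from HuCCT-1 cells exposed for 4 days to 6 nM JNJ-64619178, an inhibitor of PRMT5, the enzyme that places symmetric methyl marks on arginine in histones and splicing proteins. The other group of 3 libraries (DMSO) came from the same line given an equal volume of the solvent for 4 days. The series asked what PRMT5 inhibition does to gene expression in this cancer. All cells were of 1 line in culture. The labels do not say whether replicates were separate cultures, so p-values measure only the spread between these libraries, which may be technical.

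Cytokines are small secreted proteins that act on nearby cells through surface receptors. IL-1 alpha and IL-1 beta bind one shared receptor, and IL-1 beta and IL-18 are made as precursors that caspase-1 cleaves. IL-6, IL-11 and LIF each use a receptor of their own together with gp130, the product of IL6ST, and signal through JAK kinases and STAT3. TNF acts through a pair of receptors, CSF1 and CSF2 drive the growth and survival of macrophages and granulocytes, and IL-32 is an inducer of other inflammatory cytokines. Epithelial tumours can make these factors themselves. Many of their messages are short-lived because proteins bind AU-rich stretches in the 3′ UTR, the part of the message after the coding region.

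The AU-rich stretches are shown because they are the best known sequence feature that these messages share and were not used to choose the genes. For each gene, the 30 bases of the 3′ UTR with the most copies of ATTTA, the core of an AU-rich element, were read from its GENCODE 29 transcript (GRCh38), on the strand of the transcript. Capitals mark ATTTA, and overlapping copies were counted.
CSF2, chr5:132076076-132076105, plus strand: aaaatATTTATTTATTTATTTATTTAagtt
TNF, chr6:31578006-31578035, plus strand: attATTTATTTAttATTTATTTATTTAcag
IL1B, chr2:112829995-112830024, minus strand: cgcttccctATTTATTTATTTAtttgtttg
IL11, chr19:55365943-55365972, minus strand: ccagatcttATTTATTTATTTAtttcagta
IL1A, chr2:112774424-112774453, minus strand: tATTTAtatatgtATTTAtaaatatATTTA
LIF, chr22:30240522-30240551, minus strand: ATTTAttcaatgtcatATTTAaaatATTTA
IL6, chr7:22731741-22731770, plus strand: agttaATTTAtgtaagtcatATTTAtattt
CSF1, chr1:109930917-109930946, plus strand: taaagtcATTTAaatatctATTTAaaagat

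Tandem copies stood in CSF2, TNF, IL1B and IL11, and separate copies in IL1A, LIF, IL6 and CSF1. The 3′ UTRs of IL18 and IL32 held no ATTTA. CSF2 was densest, with 8 copies in 318 bases, or 25.2 per kilobase, followed in density by IL6, with 6 copies in 429 bases, then by TNF (11.3 per kilobase) and IL1B (9.84). Across the 3′ UTRs of 12896 tested genes the median was 1.56 per kilobase, and 68.6% held at least 1 copy. The longer form TTATTTATT was present in 5 of the 10 genes, IL11 (6 copies), TNF (5), CSF2 (3), IL1B (2) and LIF (2), against 8.41% of the same 12896. Of these 5 genes, IL11, TNF, CSF2 and IL1B rose with the inhibitor and LIF fell, as described next. Among the genes without TTATTTATT, IL18 and CSF1 rose, IL6 and IL32 fell, and IL1A did not pass the test. Over all genes tested, 20% were called higher and 17.1% lower. A link between these letters and the changes was not tested. A match is a description of the letters only.

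After 4 days of the inhibitor, IL1B, IL11, TNF, CSF2, IL18 and CSF1 were higher, IL32, IL6 and LIF were lower, and IL1A did not pass the test. The changes were modest. IL1B rose 1.47-fold and IL11 1.42-fold, while IL32 fell 1.19-fold (DMSO over JNJ). All 10 genes passed the filter on low counts, and their mean log2 CPM was 5.34 or more, where CPM, a scaled read count, corrects for library size with TMM factors. With edgeR's quasi-likelihood test and Benjamini-Hochberg adjustment over 17371 genes at 0.05, 6 were called higher, against 20% of all genes tested, and 3 lower, against 17.1%. Together 9 of 10 were called, against 37.1% of all genes and 53.5% of the 5627 genes whose mean log2 CPM was 5 or more, the level range these genes share. The libraries of the groups did not overlap in any of the 10, against 47% of all genes and 61.1% of the abundant set. The median log2 fold change of the 10 was 0.26, with a median size of 0.27, against a median size of 0.21 for all genes and 0.15 for the abundant set. With upper-quartile scaling 6 were again higher (16.1% of all genes) and 3 lower (23.6%), although over all genes the split moved from 3478 higher and 2970 lower to 2800 and 4099. Other settings also called 9 of the 10, against 37.1% of all genes with limma-voom, 37.2% with RLE scaling, 39.7% with upper-quartile scaling, 18% with no count filter, 42.9% with a CPM filter, 35.3% with the replicate block and 30.1% with DESeq2. Leaving out a DMSO library (30.7%, 29.8% and 32.3% of all genes called for replicates 1, 2 and 3) or a JNJ library (33.4%, 34.2% and 30.7%) gave 8 to 9. Tested against a fold of 1.5, none of the 10 was called, against 2.61% of all genes.

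**Figure D1:**
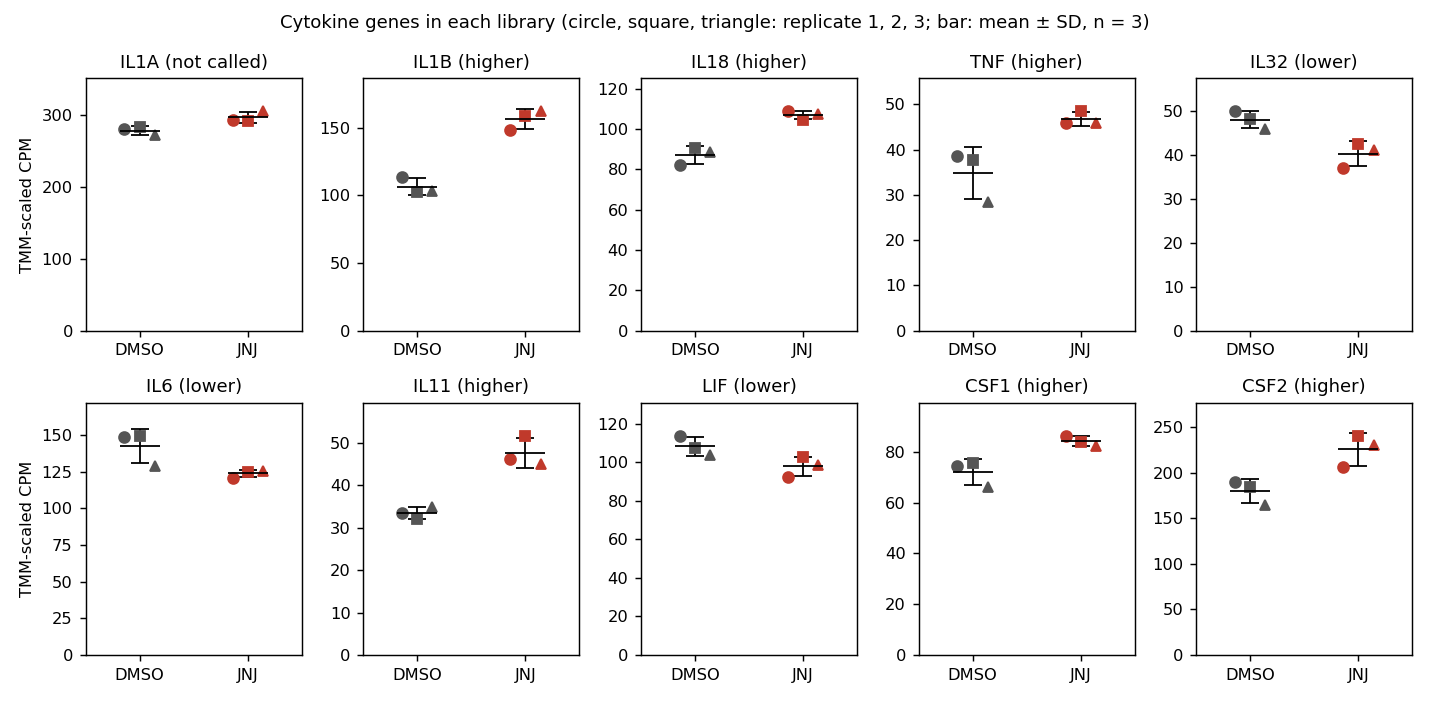
TMM-scaled CPM of the 10 cytokine genes (vertical axes, each from 0) in DMSO and JNJ libraries. Points are single libraries, with a symbol per replicate, and bars are the mean ± SD (n = 3 each). In all 10 panels the JNJ points lie wholly above or wholly below the DMSO points, with the smallest gap, 1.27 CPM, in LIF.

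Library totals lay between 28133746 and 30691914 counts for DMSO and between 23931991 and 28224911 for JNJ. DMSO replicate 3 stood apart from its group, with a chi-square per degree of freedom of 9.08 and 7.70 against the other 2 DMSO libraries, which differed by 2.69, and JNJ pairs gave 5.62 to 6.24. It was the lowest DMSO library for 7 of the 10 genes. Without it the same 9 genes were called, with a log2 fold change of 0.28 for TNF in place of 0.43, 0.16 for CSF1 in place of 0.23, 0.26 for CSF2 in place of 0.33 and -0.28 for IL6 in place of -0.20. All 8 biliary epithelial markers on the list passed the count filter, among them KRT7 at 3646 ± 100.2 CPM with DMSO. Of the 8, 6 were called (KRT7, KRT8, KRT18 and KRT19 lower, CFTR and SOX9 higher). That was 75% called, against 37.1% of all genes (20% higher and 17.1% lower). Of 11 leukocyte markers, 9 did not pass that filter, and MS4A1, TYROBP and AIF1 had no count in any library. PTPRC, which marks all leukocytes, had at most 1 count per library. The summed level of the 11 was 3.38 to 4.21 CPM with DMSO and 5.51 to 5.95 CPM with JNJ, made up largely of CD14 and CSF1R. Fibroblast markers (7 genes) summed to at most 2.03 CPM and endothelial markers (5 genes) to at most 1.54 CPM in any library, and 6 hepatocyte markers to at most 389 CPM, nearly all of it SERPINA1. The part of these marker levels in the cytokine values was not tested. In bulk RNA, a change in the share of cells that make a cytokine and a change in RNA per cell cannot be told apart.

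IL1B, a precursor cytokine of inflammation, stood at 114, 102 and 103 CPM with DMSO and at 148, 159 and 162 CPM with JNJ. Every JNJ library was above every DMSO library, with a gap of 34.7 CPM. The mean rose from 106 ± 6.44 to 156 ± 7.11 CPM (n = 3 each), a log2 fold change of 0.56 (SE 0.05, edgeR adjusted p = 4.17e-09). Its size exceeded that of 84.1% of all genes tested. IL1B (ENSG00000125538) lies on chromosome 2 at 112829751 to 112836903, minus strand, near IL1A (112773915 to 112784590) on the same strand (GRCh38, GENCODE 29).

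IL1A, whose product also acts inside the cell of origin and at its surface, stood at 279.7, 283 and 271 CPM with DMSO and at 292, 292 and 305 CPM with JNJ. The groups did not overlap, but the shift was small and did not pass the adjusted threshold (log2 fold change 0.09, SE 0.04, edgeR adjusted p = 0.0996). Its 95% interval, with no adjustment for the number of genes, ran from 0.0028 to 0.18, below the whole interval of IL1B (0.45 to 0.66). Within a library, where scaling plays no part, the count of IL1B over that of IL1A was 0.407, 0.362 and 0.38 with DMSO. With JNJ it was 0.508, 0.544 and 0.532. These ratios did not overlap (exact permutation test, two-sided, p = 0.1, the smallest that 3 against 3 allows).

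IL18, made as a precursor like IL1B, stood at 81.9, 90.7 and 88.6 CPM with DMSO and at 109, 105 and 107 CPM with JNJ. All JNJ libraries were above the DMSO libraries, and they were closer to each other. The mean rose 1.23-fold, from 87.1 ± 4.6 to 107 ± 2.13 CPM (log2 fold change 0.29, SE 0.05, edgeR adjusted p = 3.55e-05). IL18 (ENSG00000150782) lies on chromosome 11 at 112143251 to 112164117, minus strand.

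Genes that process, release or block these cytokines changed in both directions. Of 20 on this list 17 were tested, 7 rose and 4 fell, or 64.7% called against 37.1% of all genes (20% higher and 17.1% lower). The median log2 fold change was 0.04 against 0.0014 for all genes. CASP1, the caspase that cleaves both precursors, rose from 8.84 ± 0.24 to 13.8 ± 0.84 CPM (log2 fold change 0.64, edgeR adjusted p = 4.37e-06). GSDMD, the pore through which mature IL-1 beta leaves the cell, rose by 0.33 and GSDME, a related pore protein, fell by 0.27 on the log2 scale. IL1RN, the antagonist of the IL-1 receptor, rose from 67.9 ± 4.28 to 94.9 ± 4.43 CPM. Its log2 fold change was 0.48, beside the 0.56 of IL1B. SIGIRR, a receptor that dampens IL-1 and IL-18 signals, rose too (0.30). IL18BP, which traps IL-18, did not pass (log2 fold change 0.04, 95% interval -0.08 to 0.16), nor did the inflammasome adaptor PYCARD (0.02).

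Of 15 receptor genes 13 were tested, with 5 called higher and 3 lower, or 61.5% called against 37.1% of all genes. IL1RAP, the shared accessory chain, stood at 36.8 ± 1.72 CPM with DMSO and 35.5 ± 2.9 CPM with JNJ and did not pass (log2 fold change -0.05, 95% interval -0.18 to 0.08). The signalling chain IL1R1 had few counts, at 2.78 ± 0.52 and 3.86 ± 0.71 CPM, and was called higher (0.47, edgeR adjusted p = 0.0459). That call was lost in 8 of 13 alternatives, among them when replicate 1 or 3 of DMSO (adjusted p 0.0509 and 0.224) or of JNJ (0.234 and 0.0665) was left out, and with DESeq2 (0.127). The decoy IL1R2 (0.69) and the IL-18 accessory chain IL18RAP (-0.82) were each below 1.5 CPM and did not pass, though IL1R2 did with a CPM filter (adjusted p = 0.0427 by edgeR). Opposite to its ligand IL18, IL18R1 was called lower (-0.27, edgeR adjusted p = 0.0468) with overlapping libraries. It lost the call in 6 of 13 alternatives, among them when replicate 1 or 2 of DMSO (adjusted p 0.25 and 0.0903) or replicate 1 or 3 of JNJ (0.129 and 0.124) was left out, and with DESeq2 (0.108).

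TNF, the founding ligand of its family, stood at 38.6, 37.7 and 28.3 CPM with DMSO and at 45.9, 48.5 and 46 CPM with JNJ. DMSO replicate 3 lay well below its group, and the JNJ libraries lay close together above all of them. The mean rose 1.34-fold, from 34.9 ± 5.69 to 46.8 ± 1.47 CPM (log2 fold change 0.43, SE 0.08, edgeR adjusted p = 0.000137). Without DMSO replicate 3 the log2 fold change was 0.28 (adjusted p = 0.00116). Of its receptors, TNFRSF1B stood at 10.6, 10.3 and 9.86 CPM with DMSO and at 16.7, 21.6 and 17.8 CPM with JNJ. TNFRSF1B rose by 0.87 on the log2 scale (SE 0.09, edgeR adjusted p = 6.88e-08), the largest change among the 13 receptors that were tested. The broadly expressed TNFRSF1A stood at 143 ± 0.52 and 141 ± 4.44 CPM and did not pass (log2 fold change -0.02, 95% interval -0.11 to 0.08). RHBDF2, which helps the TNF-releasing protease ADAM17 to mature, rose (0.45), and ADAM17 itself fell by 0.22 on the log2 scale.

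IL32 stood at 49.9, 48.2 and 45.9 CPM with DMSO and at 37, 42.4 and 41.2 CPM with JNJ. All JNJ libraries were below the DMSO libraries. Their means were 48 ± 2.01 and 40.2 ± 2.82 CPM. The fitted change was -0.25 on the log2 scale (SE 0.06, edgeR adjusted p = 0.00137), the largest decrease among the 10. IL32 (ENSG00000008517) lies on chromosome 16 at 3065297 to 3082192, plus strand, and overlaps AC108134.3 on the other strand, which had at most 3 counts per library.

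**Figure D2:**
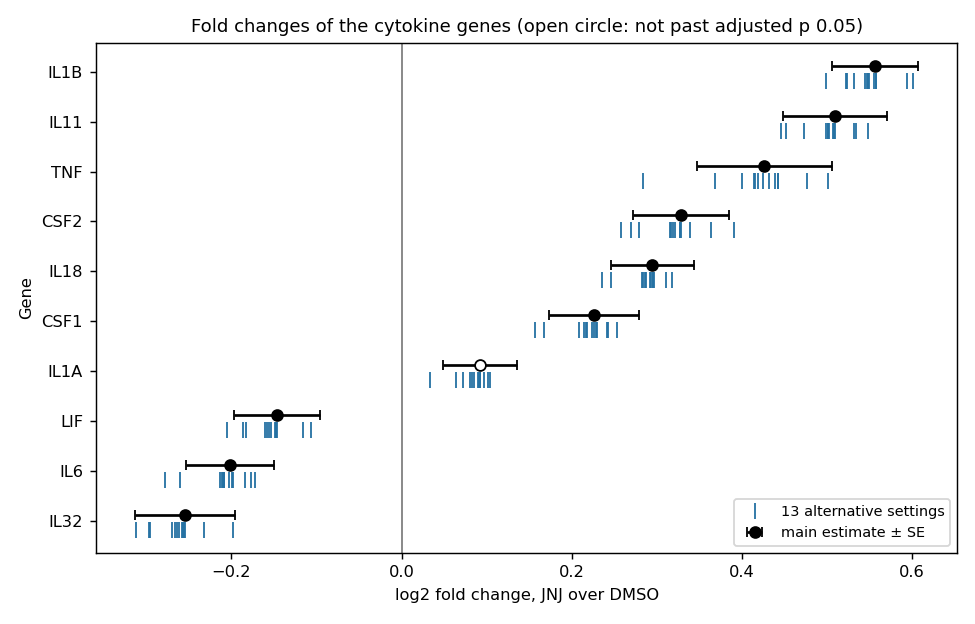
Log2 fold changes of the 10 cytokine genes, JNJ over DMSO (horizontal axis), with 1 gene per row. Circles are the edgeR estimates ± SE, the open circle (IL1A) did not pass the adjusted threshold, and the ticks below each are 13 alternative settings. No tick crosses 0. The lowest TNF tick, 0.28, is the fit without DMSO replicate 3.

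The gp130 ligands IL6, LIF and IL11 did not move together. IL6 stood at 148, 149.5 and 129 CPM with DMSO and at 121, 125 and 125 CPM with JNJ. DMSO replicate 3 lay only 3.81 CPM above the highest JNJ library, and the other DMSO libraries lay well above it. The means were 142 ± 11.4 and 124 ± 2.51 CPM, a fall of log2 fold change -0.20 (SE 0.05, edgeR adjusted p = 0.00354). Without DMSO replicate 3 it was -0.28 (adjusted p = 0.000134). IL6 (ENSG00000136244) lies on chromosome 7 at 22725884 to 22732002, plus strand. STEAP1B and AC073072.1 overlap it on the other strand, with at most 54 counts per library each, against at least 2958 for IL6. The kit marks strand, but whether counting used it is not stated.

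LIF, a factor that sustains stem cells and signals through STAT3, stood at 114, 107 and 104 CPM with DMSO and at 92.5, 103 and 98.4 CPM with JNJ. The groups were separate by only 1.27 CPM. The means were 108 ± 5.02 and 97.9 ± 5.12 CPM, and the fall (log2 fold change -0.15, SE 0.05, edgeR adjusted p = 0.0249) was the least firm of the 9 calls. It was lost when replicate 1 or 2 of DMSO (adjusted p 0.136 and 0.0542) or replicate 1 or 3 of JNJ (0.114 and 0.0651) was left out, with a log2 fold change of -0.11 to -0.16.

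IL11, which is known for its part in fibrosis, stood at 33.4, 32.1 and 35 CPM with DMSO and at 46.2, 51.8 and 45.1 CPM with JNJ. Every JNJ library was higher, by a gap of 10.1 CPM. The mean rose 1.42-fold, from 33.5 ± 1.44 to 47.7 ± 3.56 CPM (log2 fold change 0.51, SE 0.06, edgeR adjusted p = 3.70e-07). IL11 (ENSG00000095752) lies on chromosome 19 at 55364389 to 55370463, minus strand.

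Count ratios within a library restate this divergence from the same counts. The count of IL11 over that of IL6 was 0.225, 0.215 and 0.271 with DMSO and 0.382, 0.414 and 0.36 with JNJ. IL11 over LIF had means of 0.31 ± 0.023 and 0.487 ± 0.025. Neither ratio overlapped between groups (exact permutation test, two-sided, p = 0.1 for each, the smallest possible). That was fixed in advance and adds no evidence, since in every JNJ library IL11 was above DMSO and IL6 and LIF were below. IL6 over LIF overlapped, with means of 1.31 ± 0.076 and 1.27 ± 0.045 (exact permutation p = 0.5). In all 4 ratios were computed, for ligands that share a receptor chain, after the fold changes had been seen.

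**Figure D3:**
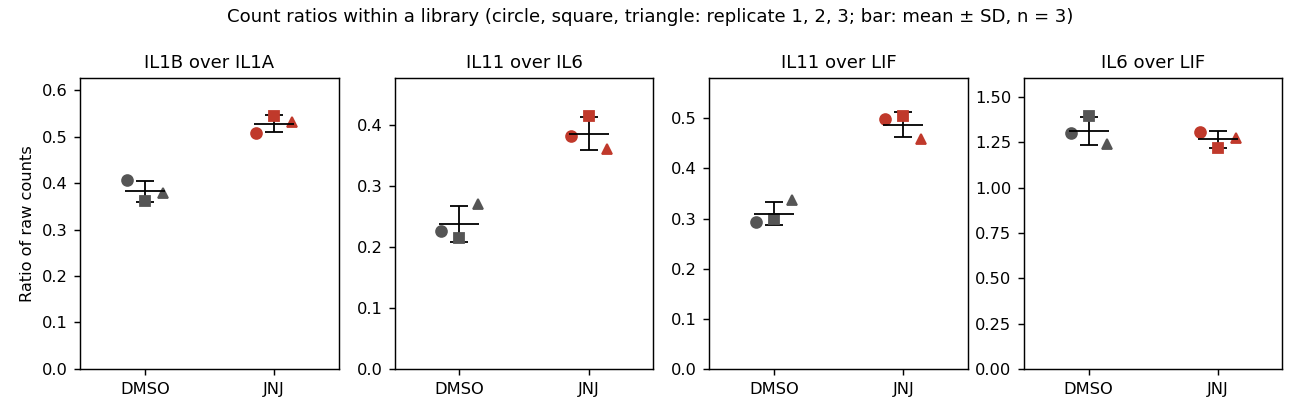
Ratio of raw counts of 2 genes in the same library (vertical axes, each from 0) for DMSO and JNJ. Points are single libraries, with a symbol per replicate, and bars are the mean ± SD (n = 3 each). The ratios of IL1B to IL1A, IL11 to IL6 and IL11 to LIF are higher in all JNJ libraries, and the ratio of IL6 to LIF overlaps.

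The receptors of the gp130 ligands changed as well, each by its own amount. IL6ST stood at 364, 362 and 365 CPM with DMSO and at 454, 414 and 431 CPM with JNJ, and rose by 0.25 on the log2 scale (SE 0.04, edgeR adjusted p = 8.92e-05). IL11RA, the receptor specific to IL-11, rose from 29.5 ± 0.88 to 40.6 ± 3.01 CPM (0.46, adjusted p = 2.26e-06), in the same direction as its ligand. IL6R, specific to IL-6, went down with its ligand, from 14.6 ± 1.13 to 11.7 ± 0.9 CPM (-0.31, adjusted p = 0.00863 by edgeR), with an adjusted p of 0.053 without DMSO replicate 1. OSMR, which pairs with gp130 for oncostatin M, fell from 246 ± 7 to 219.7 ± 7.37 CPM (-0.16). LIFR was called higher, opposite to LIF, at 18.3 ± 0.3 and 21.5 ± 2.02 CPM (0.23, edgeR adjusted p = 0.0202). That call was lost when any DMSO library (adjusted p 0.0543, 0.0529 and 0.0756 for replicates 1, 2 and 3) or replicate 1 or 3 of JNJ (0.118 and 0.0607) was left out, with DESeq2 (0.0716) and with upper-quartile scaling (0.0759).

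**Figure D4:**
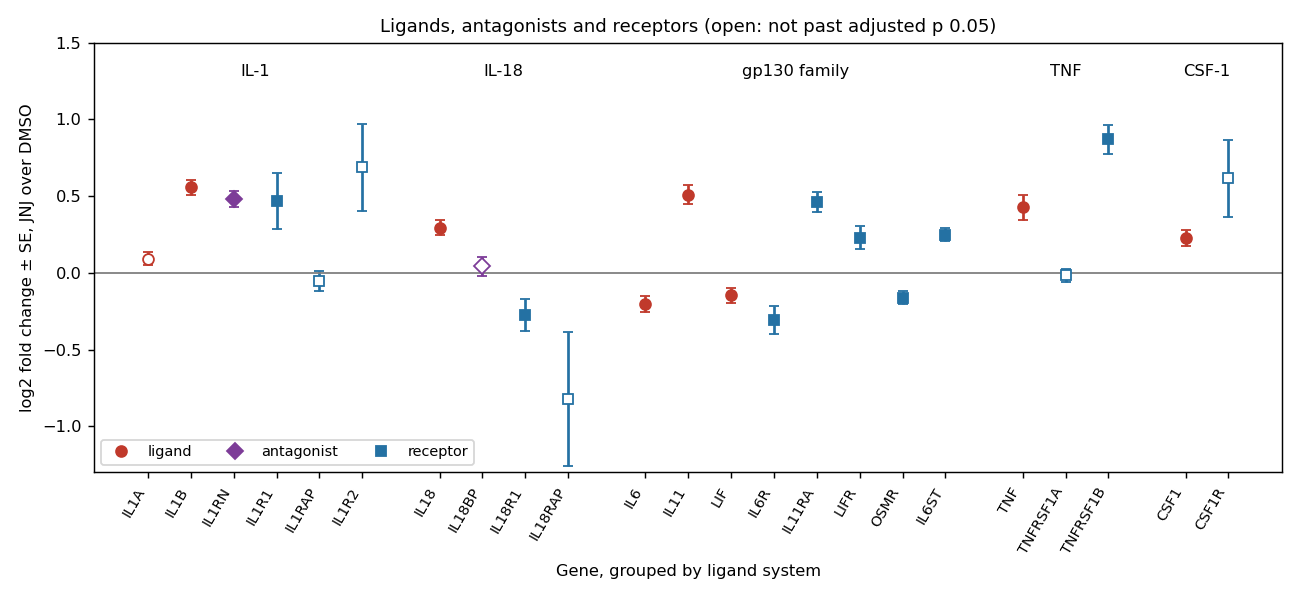
Log2 fold change ± SE, JNJ over DMSO (vertical axis), of ligands (circles), antagonists (diamonds) and receptors (squares). Genes are grouped by ligand system (horizontal axis). Filled symbols passed the adjusted threshold. IL11 and IL11RA lie above 0, IL6 and IL6R lie below it, and TNFRSF1B is the highest filled receptor. LIF and LIFR lie on opposite sides of 0, as do IL18 and IL18R1.

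Downstream of gp130, 8 of 16 tested genes rose and 2 fell on a list of 22, or 62.5% called against 37.1% of all genes (20% higher and 17.1% lower), with a median log2 fold change of 0.10. JAK2 rose from 19.4 ± 1.46 to 34.1 ± 3.04 CPM (0.81), TYK2 rose by 0.30, and STAT3, the main transcription factor of this pathway, rose from 132 ± 5.53 to 158 ± 1.09 CPM (0.26). PIAS3, an inhibitor of STAT3, rose from 84.9 ± 2.66 to 146 ± 7.29 CPM (0.79, edgeR adjusted p = 6.06e-12). SAA2, an acute-phase protein, fell from 36.2 ± 1.32 to 22.1 ± 0.89 CPM (-0.71). SAA1 was also called lower, with overlapping libraries. The pair are nearly identical, so reads may have been shared between them and both values are uncertain.

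CSF2, the factor GM-CSF, stood at 189.8, 184 and 165 CPM with DMSO and at 206, 240.4 and 229.7 CPM with JNJ. All JNJ libraries were above the DMSO libraries, and the spread within each group was wide. The mean rose 1.26-fold, from 179.6 ± 13.2 to 225 ± 17.7 CPM (log2 fold change 0.33, SE 0.06, edgeR adjusted p = 5.69e-05). CSF2 (ENSG00000164400) lies on chromosome 5 at 132073790 to 132076170, plus strand. Of its receptor chains, CSF2RA was listed at 0 in all 6 libraries and CSF2RB had 1 count in all. CSF2RA lies in the pseudoautosomal region that the X and Y chromosomes share, and the counting of reads that map to both copies is not stated.

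CSF1, the growth factor of macrophages, stood at 74.5, 75.7 and 66.3 CPM with DMSO and at 86.5, 84 and 82.5 CPM with JNJ. The JNJ libraries were all higher and closer together. The mean rose 1.17-fold, from 72.2 ± 5.1 to 84.3 ± 1.99 CPM (log2 fold change 0.23, SE 0.05, edgeR adjusted p = 0.00151). Its receptor CSF1R had few counts, at 1.22 ± 0.35 and 1.86 ± 0.26 CPM, and did not pass (0.62, edgeR adjusted p = 0.0585). CSF1R passed without DMSO replicate 2 (0.0277) and without JNJ replicate 3 (0.0483), with limma-voom (0.0482) and with a CPM filter (0.047), and not in the other 9 alternatives. CSF1 (ENSG00000184371) lies on chromosome 1 at 109910242 to 109930992, plus strand.

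Per length, CSF2 had the highest level of the 10 with DMSO, and IL11 and CSF1 had the lowest. The length was that of all exons annotated for a gene in GENCODE 29, joined, from 787 bases for CSF2 to 5418 for CSF1. It may exceed the message made in these cells and differ from the annotation used for counting, so the order depends on it. DMSO means were 228 CPM per kilobase for CSF2, 131 for IL1A, 68.8 for IL6 and 34.3 for IL1B. They were 33.1 for IL18, 27.3 for LIF, 20.8 for TNF, 15 for IL32, 13.3 for CSF1 and 12.6 for IL11. IL1B and IL18, and CSF1 and IL11, overlapped between their DMSO libraries, so their order was not resolved. With JNJ, TNF (27.9 ± 0.88) stood above LIF (24.7 ± 1.29) and IL11 (17.9 ± 1.33) above IL32 (12.5 ± 0.88). The 10 genes summed to between 1036 and 1124 CPM with DMSO and between 1184 and 1249.6 CPM with JNJ.

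RefSeq promoter windows (GRCh38.p14, from 250 bases before to 50 after a start) were given for 7 of the 10 genes, with 9 windows in all; IL18, LIF and CSF1 had none. They are shown for the 3 called genes whose window held a match to NF-kB, AP-1 or the cyclic AMP response element CRE. The letters were GGGRNNYYCC for NF-kB, TGANTCA for AP-1 and TGACGTCA for CRE, each searched on both strands. R is A or G, Y is C or T, and N is any base. A site with other letters would be missed. Capitals mark the matches, and the stretch starts 130 bases before the RefSeq start.
IL6, chr7:22727070-22727146, plus strand, NF-kB: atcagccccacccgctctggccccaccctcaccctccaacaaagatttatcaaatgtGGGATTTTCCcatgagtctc
IL32, chr16:3065273-3065318, plus strand, CRE then NF-kB: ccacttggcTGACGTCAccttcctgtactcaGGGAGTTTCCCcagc
IL11, chr19:55370517-55370593, minus strand, AP-1: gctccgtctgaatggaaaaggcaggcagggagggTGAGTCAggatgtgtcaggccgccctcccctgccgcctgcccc

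The NF-kB matches were in IL6, starting at base -73, and in IL32. Those of IL32 were a pair on opposite strands that overlap from base -99. Positions count from a RefSeq start. In GENCODE 29 the genes start earlier, at 22725884 (IL6) and 3065297 (IL32), so these matches lie inside the annotated genes. Both genes fell with the inhibitor. An NF-kB match stood in 11.3% of all 35116 promoter windows, AP-1 in 7.71% and CRE in 1.85%. AP-1 matches were in IL11 (base -96) and in both windows of IL1A. The windows of IL1B, TNF and CSF2, which rose, held none of these 3 motifs, which says only that these letters are not in these windows. Also searched were the C/EBP motif TTNNGNAA (36.8% of all windows) and TATAAA (7.33%). C/EBP matches stood in windows of IL1A, IL1B, IL6, IL32 and TNF, and TATAAA in windows of IL1A and TNF.

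Of 24 tested transcription factors that act on cytokine genes, 9 were called higher and 2 lower, or 45.8% called against 37.1% of all genes (20% higher and 17.1% lower), with a median log2 fold change of 0.06. NFKB2 rose from 166 ± 3.27 to 254 ± 4.76 CPM (log2 fold change 0.61), NFKB1 by 0.34 and the inhibitor NFKBIA by 0.44 on the log2 scale. FOS, a subunit of AP-1, rose from 6.67 ± 0.29 to 13.3 ± 1.39 CPM (0.997), and JUNB rose by 0.30. RELA (-0.03), CEBPB (-0.08) and IRF1 (-0.06) did not pass. Of 16 genes for proteins that control the stability of cytokine messages, 7 rose, 0 fell and 9 did not pass. That was 43.8% called, against 37.1% of all genes (20% higher and 17.1% lower), with a median of 0.09. The shares called on both lists were below the 53.5% of genes with a mean log2 CPM of 5 or more. Not all genes on these lists reach that level. TIAL1 and TIA1, which bind AU-rich elements and hold back translation, rose from 269 ± 10.6 to 387 ± 4.96 CPM (0.53) and from 144 ± 5.71 to 182 ± 7.21 CPM (0.33). ZC3H12C, of the RNase family of regnase-1, rose by 0.41. The decay factors ZFP36 (-0.05) and ZFP36L1 (0.05) and the stabiliser ELAVL1 (-0.11) did not pass. The calls of HNRNPD, ZFP36L2 and MAPKAPK2 on this list were each lost in 2 to 11 of 13 alternatives, with adjusted p up to 0.12, 0.185 and 0.323.

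The genes whose pattern over the 6 libraries was most like that of CSF2, the one with the highest mean CPM among the 9 called, were HBEGF (Pearson r = 0.998 of log2 CPM), VASH1-AS1 (0.997, an antisense gene whose reads may not be told from its partner) and PPRC1 (0.997), among 13023 genes. HBEGF, a ligand of the EGF receptor, rose by 0.17 on the log2 scale, and PPRC1 did not pass (0.06). An r of at least 0.95 was reached by 222 of those genes, and all values share the same 6 libraries and the same group contrast, so these are descriptions.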

How the data were processed

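The authors deposited raw read counts per gene for 6 libraries, with no normalization. Per the labels' protocols, libraries were made with a stranded mRNA ligation kit. Per the submitters' processing notes, the tools included featureCounts 1.6.0 and STAR 2.7.9a, besides FastQC 0.11.8, limma and edgeR, with no roles stated. The build is named as GRCm39, a mouse build, although all rows carry human gene identifiers. Annotation, strand setting and treatment of multi-mapping reads: not given in the sources used here.

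Second rows of 44 identifiers, all with no counts, were dropped. Genes were kept with filterByExpr (minimum count 10, total 15), scaled by TMM and fitted on the group alone with glmQLFit and glmQLFTest (edgeR 4.0.16, R 4.3.3). The SE is the log2 fold change divided by the square root of F. The comparison of JNJ against DMSO was tested on simulated counts of 17049 genes. It recovered 55.4% of 65 changes of 1.25-fold, 69.7% of 66 of 1.5-fold and 84.4% of 64 of 2-fold. Beside these, 17 unchanged genes were called. So few genes were changed there, against 37.1% of genes called in the real data, that these shares may not carry over. Alternatives were DESeq2 1.42.0, limma-voom (limma 3.58.1), RLE and upper-quartile scaling, 2 other filters, the replicate block, glmTreat at 1.5-fold and leaving out each library. The genes and lists were chosen with earlier results of these data known. All 10 genes were named, as were all tested receptors and, from other lists, genes among the 6 smallest p; markers and genes of these lists that did not pass were added by role after their values were seen. All 208 list entries were matched by symbol.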

Additional observations from a re-analysis of the deposited data

How the results depend on the processing

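Under 13 alternatives (all but glmTreat) the 10 genes kept their direction. The calls of 8 of the 9 held in all 13, and that of LIF was lost in the 4 fits named above, so that 8 to 9 genes were called over the fits that leave out 1 library. Tested against a fold of 1.5 with edgeR's glmTreat, 0 of the 10 were called (0 higher, 0 lower), with 0 at an unadjusted p under 0.05; the largest fold was 1.47 in IL1B. DESeq2 and limma-voom, which test against no change, called 9 each. Over all genes glmTreat called 454, of which 326 were higher and 128 lower. Among receptors that did not pass, leaving out 1 library moved the log2 fold change of TNFRSF1A between -0.036 and 0.0090 and that of IL1RAP between -0.11 and 0.0095; both changed sign, without JNJ replicate 1 and JNJ replicate 2 respectively. Same-numbered DMSO and JNJ libraries did not deviate together over all tested genes (correlations -0.018, -0.014 and 0.0019), which gave no sign of pairing. Genes with few counts enter equally in these correlations, so a shared culture or day is not excluded. With the replicate block 9 of the 10 genes and 6132 of all genes were called. The 10 genes had at least 882 counts per library each, while IL1R1, IL1R2, IL18RAP and CSF1R had at most 114.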

Other observations

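Other secreted factors of the same kinds mostly had few counts in HuCCT-1. Of 46 further interleukins and haematopoietic cytokines 16 passed the filter on low counts, and 14 had no count in any library, among them IL2, IL4 and IL33. With edgeR, 4 of the 16 rose and 12 did not pass, or 25% called against 37.1% of all genes and 20% called higher (median log2 fold change 0.10). IL23A, a subunit of IL-23, rose from 10.1 ± 0.73 to 13.4 ± 2.14 CPM (0.41, edgeR adjusted p = 0.00361). IL36G and IL37, both of the IL-1 family, rose from 1.2 ± 0.18 to 2.35 ± 0.355 CPM (0.96) and from 1.46 ± 0.18 to 2.35 ± 0.063 CPM (0.69). IL37 lost its call without DMSO replicate 1 (adjusted p = 0.0511) and with DESeq2 (0.0516). EBI3, a subunit shared by IL-27 and IL-35, was called higher at under 1 CPM and lost the call in 7 of 12 alternatives, each fit without 1 library but that without JNJ replicate 3 among them (adjusted p 0.0564 to 0.128). CLCF1, at 38.8 ± 2.45 and 35.3 ± 2 CPM, signals through gp130 and did not pass (-0.13).

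Of 17 ligands of the TNF family other than TNF, 13 were tested, 2 rose and 11 did not pass, or 15.4% called against the same 37.1% (median 0.17). TNFSF10, the death ligand TRAIL, rose from 25.8 ± 1.87 to 33.5 ± 1.78 CPM (0.38, edgeR adjusted p = 8.46e-05), and LTB, a subunit of lymphotoxin, from 6.37 ± 0.88 to 9.63 ± 1.14 CPM (0.60, adjusted p = 0.000349 by edgeR). TNFSF15 stood at 45.7 ± 4.18 and 48.5 ± 0.09 CPM and did not pass (0.09).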
